A study of Homo sapiens with 60 samples.

Results

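The aminoacyl-tRNA synthetases are the enzymes that join each amino acid to its transfer RNA. The set described here holds 35 genes of the 60675 in the count table, 19 for the cytosolic enzymes and 16 for the mitochondrial ones, chosen by name: symbols ending in ARS2 are mitochondrial. All 35 passed the filter on low counts, after which 16608 genes were tested. The enzymes for the remaining amino acids and compartments were not analysed here.

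HT29 is an established human cell line derived from a colorectal adenocarcinoma. Its cells were profiled by RNA sequencing 24 h after treatment. The 60 libraries formed 20 groups of 3: wortmannin at 10 µM, 18 groups given a hot-water extract of a herbal medicine, and DMSO vehicle (0.1% in the sample labels, 2% in the series text). Wortmannin, an inhibitor of phosphoinositide 3-kinase, served as positive control. The extracts of Zingiberis Rhizoma Recens (fresh ginger here), Zingiberis Rhizoma (ginger here), Pinelliae Tuber, Scutellariae Radix and Zizyphi Fructus were used at 20, 100 and 500 µg/mL, and that of Coptidis Rhizoma at 11.6, 58 and 290 µg/mL; these are called the low, medium and high dose. Whether replicates are separate cultures is not given in the labels, so p-values here measure only how far the libraries of a group scatter, which may be technical. All results are of 1 cell line.

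Library totals ran between 11.1 and 34.4 M counts (M, 1e6; median 23.4 M). All sample titles name the same batch, BatchA. The first part of the sample codes, whose meaning the labels do not give, differs between vehicle and wortmannin and is shared by both gingers, by Pinelliae and Scutellariae, and by Coptidis and Zizyphi. If that part marks a difference in handling, it and treatment cannot be told apart in comparisons with vehicle, whereas the doses of 1 extract share it. The sample labels give a DMSO content for vehicle only. If the extract groups held no DMSO, solvent and treatment cannot be told apart in comparisons with vehicle either. Earlier results showed 4 libraries apart from the rest (vehicle 1, fresh ginger low 1, ginger high 2, Zizyphi high 3), and none of them enters a dose comparison of Coptidis or Scutellariae. Of the colon epithelium markers, EPCAM averaged 568 ± 42.1 CPM and KRT8 6740 ± 923 CPM with vehicle (counts per 1e6, SD, n = 3), while CDX2 was low at 5.79 ± 0.28 CPM. Of the leukocyte markers, PTPRC and CD3E were at 0 in the vehicle libraries, while CD68, a lysosomal protein of macrophages, had 7.27 ± 1.38 CPM. CD68 was called higher with wortmannin against vehicle (0.55 ± 0.15) and at the high against the low Scutellariae dose (0.44 ± 0.16), and its part in the results there was not tested. Since these are bulk RNA samples, fewer cells with a transcript and less transcript per cell cannot be told apart.

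Cytosolic synthetases serve the ribosomes that translate nuclear messages, and several of them sit together with scaffold proteins in the multisynthetase complex. Mitochondrial synthetases are encoded in the nucleus and imported, and they charge the transfer RNAs that read the few messages of the mitochondrial genome. GARS1 and KARS1 each supply both compartments from a single gene, and mitochondria make glutaminyl-tRNA through an amidotransferase. When amino acids run short or the endoplasmic reticulum is stressed, kinases phosphorylate the initiation factor eIF2, translation of the factor ATF4 rises, and ATF4 with C/EBP partners induces amino acid transport, synthesis and many cytosolic synthetase genes through composite C/EBP-ATF elements.

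The letters of that element, TGATGNAA on either strand, were searched in RefSeq promoter windows (250 bases before to 50 after each gene's start, GRCh38.p14), since many cytosolic members moved together. Windows were found for 16 cytosolic and 14 mitochondrial members. Only 1 start per gene was searched, and it need not be the start of the locus given further on. For MARS1 the match lies well inside that locus (chr12:57475445-57517569). Other starts of a gene were not searched. The letters occurred in 6 of the 16 cytosolic windows, in 1 of the 14 mitochondrial windows and in 1003 of all 27305 promoters (3.67%). The 7 stretches of 30 bases are given 5′ to 3′ along the gene's own strand, with the matching letters in capitals; TTGCATCA is the match read on the opposite strand, and no other motif was searched.
TARS1 (cytosolic, chr5:33440956-33440985, + strand): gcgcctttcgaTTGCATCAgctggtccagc
IARS1 (cytosolic, chr9:92293692-92293721, - strand): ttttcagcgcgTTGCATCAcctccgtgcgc
CARS1 (cytosolic, chr11:3057407-3057436, - strand): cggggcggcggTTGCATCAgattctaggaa
MARS1 (cytosolic, chr12:57488053-57488082, + strand): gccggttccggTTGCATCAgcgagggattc
AARS1 (cytosolic, chr16:70289675-70289704, - strand): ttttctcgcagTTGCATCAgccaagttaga
NARS1 (cytosolic, chr18:57621804-57621833, - strand): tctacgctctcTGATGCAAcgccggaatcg
YARS2 (mitochondrial, chr12:32756076-32756105, - strand): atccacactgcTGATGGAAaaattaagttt
The 6 cytosolic matches carry the same 8 letters, TTGCATCA or its complement, while that of YARS2 differs at the free position. A match describes letters in this window and not binding by any factor.

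In vehicle-treated cells the cytosolic synthetases were the more abundant class. Per kilobase of exon, KARS1 (lysine) had the highest level at 53.4 ± 1.26 RPKM (reads per kilobase per 1e6, SD, n = 3), followed by EPRS1, which charges glutamate and proline, at 48.8 ± 1.78 RPKM, and TARS1 (threonine) at 46.5 ± 1.06 RPKM. KARS1 and EPRS1 differed by more than their SDs, whereas IARS1 and GARS1 both stood at 43.0 RPKM. The median was 29.4 RPKM over the 19 cytosolic genes and 7.65 RPKM over the 16 mitochondrial ones. Among the mitochondrial genes IARS2 (isoleucine) was high at 32.3 ± 0.45 RPKM, above 11 cytosolic members, and FARS2 (phenylalanine) lowest at 2.29 ± 0.197 RPKM. The length used is that of all annotated exons of a gene, so this order depends on the annotation. By CPM, 4 of the 11 were above IARS2 (134 CPM): YARS1 (196), LARS1 (184), MARS1 (167) and QARS1 (144). The rest of the 11 were below it. CARS1 (cysteine), at 6.79 ± 0.0928 RPKM, was the lowest cytosolic member.

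Over all 20 groups, the classes parted with Coptidis above all. The class level of a library is the mean over members of log2 CPM minus the vehicle mean, and the difference between classes within a library does not depend on the library's scaling. The cytosolic minus mitochondrial difference was 0.083 ± 0.015, 0.298 ± 0.024 and 0.969 ± 0.029 at the low, medium and high dose of Coptidis (log2, SD, n = 3). With Scutellariae it was 0.002 ± 0.016, 0.091 ± 0.024 and 0.140 ± 0.007 at the low, medium and high dose. Both extracts thus had larger differences at each higher dose. With wortmannin the difference was -0.107 ± 0.019, against 0 ± 0.012 with vehicle. In the other 12 groups it lay between -0.030 and 0.046.

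The summed level shows the size of the class in the library. Cytosolic synthetases summed to 3274 ± 31, 3809 ± 50 and 6126 ± 206 CPM at the low, medium and high dose of Coptidis. Mitochondrial synthetases summed to 585 ± 4, 578 ± 4 and 520 ± 11 CPM in the same groups, so the sums of the classes moved in opposite directions. With wortmannin the cytosolic sum was 2701 ± 7 CPM, against 3086 ± 64 CPM with vehicle.

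**Figure D1:**
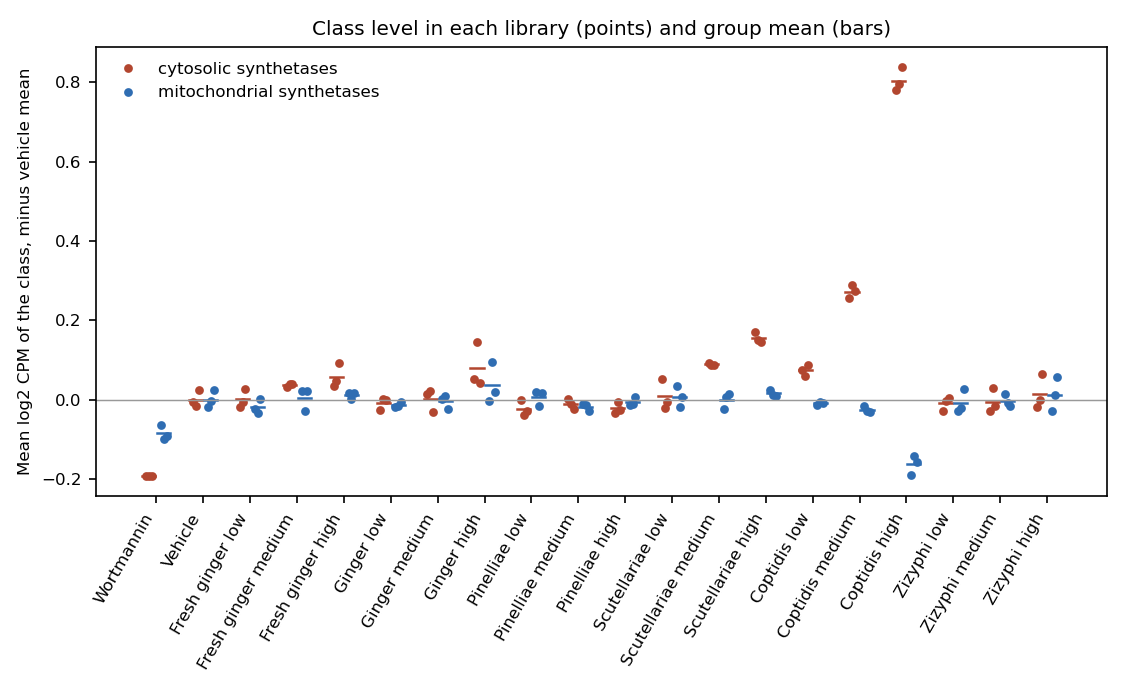
Class level in each library, in log2 units relative to the vehicle mean (vertical axis), for the 20 groups (horizontal axis); points are libraries and bars group means. Cytosolic synthetases lie at 0.805 and mitochondrial ones at -0.164 at the high Coptidis dose, and wortmannin is the group with the lowest cytosolic level.

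At the high against the low dose of Coptidis, 13 of the 19 cytosolic synthetases rose, 2 fell and 4 were not called. Of all genes tested in this comparison 52.4% were called, 27.1% higher and 25.3% lower, so a call alone is common here. The cytosolic median change was 0.90 log2 units, against 0.00 over all genes tested. The changes ranged between -0.69 and 2.04. The 6 cytosolic genes with the C/EBP-ATF letters are all among the 13 that rose (6 of the 11 of these with a window). WARS1, the largest riser at 2.04, had a window without the letters, as did SARS1, GARS1, EPRS1 and QARS1. None of the 5 windows of cytosolic genes that did not rise held the letters. At the 3.67% of all promoters, 5 windows would seldom hold a match, so this lack tells little. The relation of the letters to the calls was not tested. VARS1, which fell most, had no window, nor did LARS1 and YARS1. The mitochondrial gene with the letters, YARS2, was not called (-0.11).

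WARS1 (tryptophan, chr14:100333788-100376805), which interferon also induces, had 102, 97.2 and 101 CPM at the low dose, 125, 125 and 130 CPM at the medium dose and 404, 407 and 419 CPM at the high dose. Its high-dose libraries all lay above the others, and the fitted change from low to high dose was 2.04 ± 0.05 log2 units (4.11-fold, approximate SE, edgeR adjusted p = 2.32e-37). SARS1 (serine, chr1:109213918-109238169) had 109, 113 and 112 CPM at the low dose, 150, 158 and 153 CPM at the medium dose and 385, 379 and 382 CPM at the high dose. The doses did not overlap at any step, and the change was 1.78 ± 0.06 (3.43-fold, adjusted p = 5.32e-31).

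AARS1 (alanine, chr16:70252295-70289543) had 155, 155 and 151 CPM at the low dose, 202, 207 and 205 CPM at the medium dose and 444, 467 and 475 CPM at the high dose. It rose by 1.59 ± 0.04 log2 units (3.00-fold, adjusted p = 4.47e-35), with all groups apart. GARS1 (glycine, chr7:30594681-30634033), which also serves mitochondria, had 198, 203 and 197 CPM at the low dose, 270, 274 and 274 CPM at the medium dose and 589, 584 and 608 CPM at the high dose. Its change was 1.58 ± 0.04 (2.98-fold, adjusted p = 6.37e-37). GARS1 and AARS1 thus rose by nearly the same factor, from different levels.

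CARS1 (cysteine, chr11:3000922-3057613) had 82.3, 75.5 and 82 CPM at the low dose, 111, 105 and 107 CPM at the medium dose and 178, 180 and 186 CPM at the high dose, a change of 1.18 ± 0.05 (adjusted p = 1.20e-26). YARS1 (tyrosine, chr1:32775237-32818153) had 200, 211 and 210 CPM at the low dose, 261, 271 and 261 CPM at the medium dose and 438, 450 and 466 CPM at the high dose. It rose by 1.12 ± 0.04 (2.18-fold, adjusted p = 3.39e-31). In both genes all libraries of a higher dose lay above those of the lower one.

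MARS1 (methionine, chr12:57475445-57517569) had 181, 183 and 181 CPM at the low dose, 224, 233 and 223 CPM at the medium dose and 343, 344 and 351 CPM at the high dose, a change of 0.93 ± 0.04 (adjusted p = 4.16e-27). Its locus overlaps DDIT3, an ATF4-induced stress factor on the opposite strand, and the strand setting of the counting is not given in the sources used here. DDIT3 itself had 6.17, 7.02 and 6.03 CPM at the low dose and 75.5, 67.1 and 71 CPM at the high dose. Its part in the MARS1 value was not tested. EPRS1 (chr1:219968601-220046658), a member of the multisynthetase complex, had 298, 287 and 300 CPM at the low dose, 348, 349 and 351 CPM at the medium dose and 506, 541 and 602 CPM at the high dose. Its change was 0.90 ± 0.04 (1.86-fold, adjusted p = 4.59e-23), again with no overlap between doses.

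The other cytosolic risers were IARS1 (isoleucine, 1.09 ± 0.06), NARS1 (asparagine, 0.95 ± 0.05), TARS1 (threonine, 0.87 ± 0.05), LARS1 (leucine, 0.55 ± 0.05) and QARS1 (glutamine, 0.12 ± 0.05). QARS1 rose least, and its adjusted p of 2.94e-02 was the highest among the 13. Its libraries held 146, 139 and 154 CPM at the low dose and 160, 156 and 162 CPM at the high dose.

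The 2 cytosolic genes that fell are named because they moved the other way. VARS1 (valine, chr6:31777518-31795953) had 242, 241 and 253 CPM at the low dose, 219, 238 and 231 CPM at the medium dose and 152, 160 and 143 CPM at the high dose. It fell by 0.69 on the log2 scale (SE 0.04, adjusted p = 7.50e-20), with no overlap between high and low. FARSA, the alpha subunit of the phenylalanine enzyme, had 60.1, 63.8 and 62.1 CPM at the low dose and 56.2, 53.4 and 50.8 CPM at the high dose, a change of -0.21 ± 0.07 (adjusted p = 9.56e-03). Its partner subunit FARSB was not called, at 0.08 with an interval between -0.02 and 0.18. HARS1 (histidine), KARS1 (lysine) and RARS1 (arginine) were not called either, and their changes of -0.03, 0.04 and 0.02 had intervals inside -0.11 to 0.13. HARS1 and HARS2 overlap head to head, and their deposited counts were fractional in all 60 libraries, so the share of reads between them is uncertain. Counts were also fractional in 60 libraries for CARS2, in 59 for MARS1 and SARS2 and in 58 for VARS2. Every other member had fractional counts in 18 libraries or fewer.

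Both members of the multisynthetase complex and free enzymes were among the risers. Of the 7 complex members, 5 rose and 2 were not called (median 0.55), and of the 12 free enzymes 8 rose and 2 fell (median 1.04). By catalytic fold, 7 of 9 class I enzymes and 5 of 9 class II enzymes rose. Neither the complex nor the fold was tested as a difference between groups of genes.

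**Figure D2:**
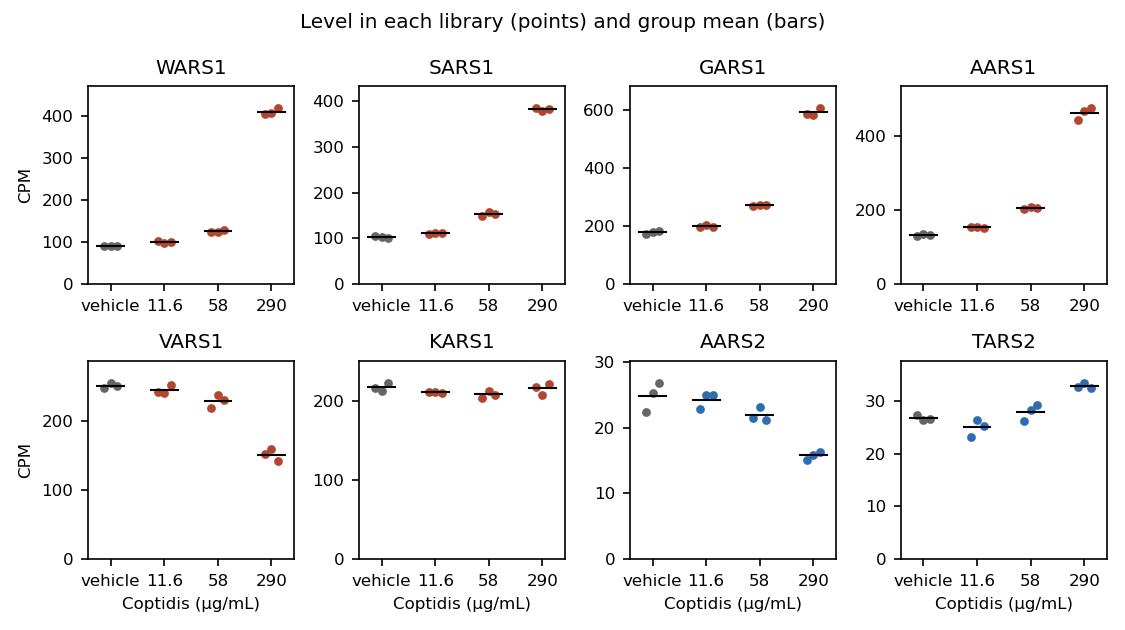
CPM in each library for 8 synthetases with vehicle and at 11.6, 58 and 290 µg/mL Coptidis extract; points are libraries, bars group means, and each vertical axis starts at 0. WARS1, SARS1, GARS1 and AARS1 climb at each dose, VARS1 and AARS2 are lowest at the high dose, KARS1 stays between 204 and 223 CPM, and TARS2 is highest at the high dose.

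Of the 16 mitochondrial synthetases, 2 rose and 8 fell at the high against the low Coptidis dose, and 6 were not called. The share called in either direction is not far from the 52.4% of all genes. By direction, the share that fell was above the 25.3% of all genes, and the share that rose was below the 27.1%. This difference in direction was not tested. Their median was -0.16 log2 units, and their changes lay between -0.62 and 0.52. AARS2 (alanine, chr6:44299654-44313326) had 22.8, 24.9 and 25 CPM at the low dose, 21.4, 23.1 and 21.1 CPM at the medium dose and 15.1, 15.9 and 16.3 CPM at the high dose. Its high-dose libraries were all the lowest, and it fell by 0.62 on the log2 scale (SE 0.06, adjusted p = 3.16e-12). SARS2 (serine, chr19:38915266-38930896) had 40.4, 44.3 and 42.2 CPM at the low dose, 39.9, 39.5 and 37.4 CPM at the medium dose and 33.5, 30 and 29.1 CPM at the high dose. It changed by -0.46 ± 0.06 (adjusted p = 1.30e-08), and its locus overlaps the mitochondrial ribosomal protein gene MRPS12.

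LARS2 (leucine, chr3:45388506-45549421) had 28.1, 25.1 and 25.8 CPM at the low dose, 26.1, 25 and 25.7 CPM at the medium dose and 18.9, 19.2 and 20.2 CPM at the high dose, a change of -0.44 ± 0.06 (adjusted p = 2.45e-08). EARS2 (glutamate, chr16:23522014-23557731) had 59.8, 54.8 and 56.6 CPM at the low dose, 51.5, 50.4 and 58.4 CPM at the medium dose and 41.4, 43.9 and 44.8 CPM at the high dose. It changed by -0.39 ± 0.05 (adjusted p = 2.75e-08). In both genes the low and medium doses overlapped and the high dose lay below. FARS2 (phenylalanine, -0.56 ± 0.11), MARS2 (methionine, -0.40 ± 0.06), IARS2 (isoleucine, -0.23 ± 0.05) and WARS2 (tryptophan, -0.21 ± 0.07) also fell.

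TARS2 (threonine, chr1:150487364-150507609) went the other way, with 23.3, 26.5 and 25.3 CPM at the low dose, 26.3, 28.4 and 29.2 CPM at the medium dose and 32.7, 33.5 and 32.6 CPM at the high dose (0.40 ± 0.06, adjusted p = 4.37e-08). PARS2 (proline, chr1:54756898-54764514), named here for its direction, had 12.3, 9.93 and 10.7 CPM at the low dose, 10.6, 10.8 and 11.5 CPM at the medium dose and 15.5, 16.4 and 15.2 CPM at the high dose. It rose by 0.52 ± 0.08 (adjusted p = 9.66e-07), and only its high dose stood apart. CARS2, HARS2, NARS2, RARS2, VARS2 and YARS2 were not called, with changes between -0.11 and 0.08.

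For 13 amino acids both the cytosolic and the mitochondrial enzyme are in the set. Between the high and low Coptidis dose, the cytosolic gene rose while its mitochondrial counterpart fell in 6 pairs: alanine, isoleucine, leucine, methionine, serine and tryptophan. In 3 pairs (cysteine, asparagine, tyrosine) only the cytosolic gene was called, higher. Both rose for threonine, VARS1 alone fell for valine, and neither was called for histidine and arginine. The change of the cytosolic gene was the larger one, with its sign, in 12 of 13 pairs, valine being the exception. In the histidine and arginine pairs, which are among the 12, the difference was only 0.01.

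**Figure D3:**
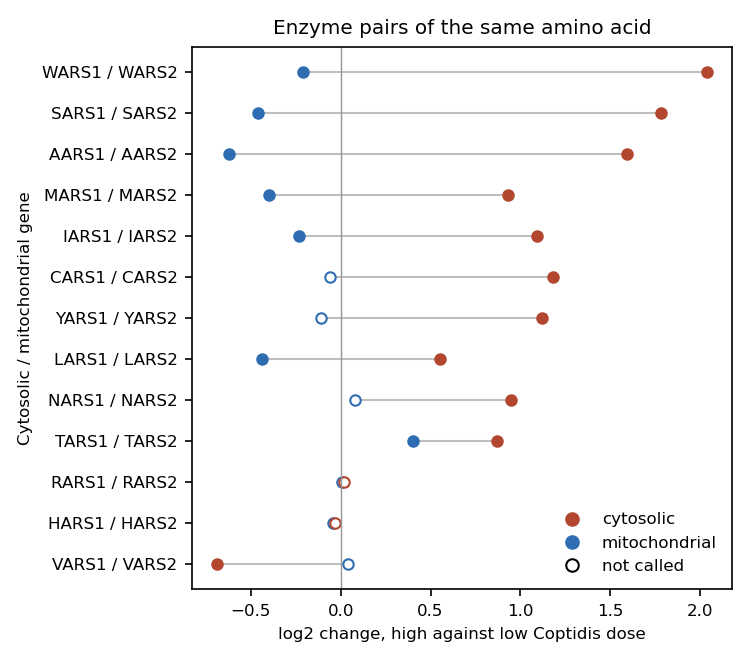
Log2 change between the high and low Coptidis dose (horizontal axis) of the cytosolic and the mitochondrial enzyme for each of 13 amino acids, sorted by their difference; open points were not called. The widest gap is that of WARS1 (2.04) and WARS2 (-0.21), and the order is turned round in the valine pair alone. The histidine and arginine pairs differ by only 0.01.

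At the medium dose only cytosolic members were called. Against the low dose, 12 of 19 cytosolic synthetases rose and none fell, where 1.3% of all genes were called (0.945% higher, 0.355% lower). Both Coptidis contrasts share the low-dose libraries, so their values stand side by side only. The largest medium-dose changes were those of SARS1 (0.47 ± 0.06, adjusted p = 4.90e-08), GARS1 (0.45 ± 0.04, adjusted p = 2.30e-13), CARS1 (0.43 ± 0.05, adjusted p = 7.93e-09) and AARS1 (0.41 ± 0.04, adjusted p = 1.23e-10). YARS1 and WARS1 both rose by 0.35, MARS1 by 0.32 and EPRS1 by 0.24, with adjusted p between 3.11e-10 and 4.13e-04. WARS1, first in size at the high dose, was thus in the middle of the risers here. No mitochondrial member was called by edgeR or by DESeq2. An unadjusted p under 0.05 in edgeR was reached by 2 of the 16 and by 8.59% of all genes.

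With Scutellariae, 12 of the 19 cytosolic synthetases rose at the high against the low dose and QARS1 fell, with changes between -0.24 and 0.36 log2 units. Of all genes 16.3% were called, 7.92% higher and 8.42% lower. The cytosolic median was 0.16 log2 units, against -0.01 over all genes tested. With no filter on low counts 5 cytosolic genes were called higher in place of 12, at nearly the same changes. WARS1 had 100, 83.4 and 86.1 CPM at the low dose, 96.1, 98.6 and 93.3 CPM at the medium dose and 116, 117 and 111 CPM at the high dose (0.36 ± 0.05, adjusted p = 3.84e-08). Its first low-dose library was above the medium ones, but all high-dose libraries lay above all low-dose ones. GARS1 had 179, 178 and 176 CPM at the low dose, 198, 197 and 201 CPM at the medium dose and 214, 216 and 212 CPM at the high dose (0.27 ± 0.04, adjusted p = 1.16e-07), with every dose apart. YARS1 had 197, 187 and 198 CPM at the low dose, 216, 212 and 207 CPM at the medium dose and 232, 225 and 234 CPM at the high dose, and rose by 0.25 ± 0.04 (adjusted p = 4.57e-07).

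SARS1 had 105, 95.6 and 101 CPM at the low dose, 105, 105 and 110 CPM at the medium dose and 125, 124 and 117 CPM at the high dose of Scutellariae (0.28 ± 0.06, adjusted p = 2.08e-04). MARS1 had 178, 170 and 163 CPM at the low dose, 180, 191 and 177 CPM at the medium dose and 189, 192 and 198 CPM at the high dose (0.18 ± 0.04, adjusted p = 2.57e-04). For both genes high and low did not overlap. VARS1 had 255, 259 and 248 CPM at the low dose, 249, 268 and 277 CPM at the medium dose and 293, 289 and 278 CPM at the high dose, rising by 0.18 ± 0.04 (adjusted p = 1.47e-03), where Coptidis lowered it. AARS1 had 139, 136 and 132 CPM at the low dose, 140, 140 and 144 CPM at the medium dose and 152, 155 and 150 CPM at the high dose (0.17 ± 0.04, adjusted p = 1.95e-03). MARS1, VARS1 and AARS1 are among the calls lost with no filter (adjusted p = 0.0565, 0.0654 and 0.0913). KARS1, which did not change with Coptidis past the threshold, rose by 0.17 ± 0.04.

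QARS1 fell with Scutellariae: it had 147, 143 and 150 CPM at the low dose, 129, 138 and 140 CPM at the medium dose and 126, 120 and 126 CPM at the high dose. The change was -0.24 ± 0.05 (adjusted p = 1.96e-04), and no high-dose library reached a low-dose one. The remaining risers were IARS1, EPRS1, CARS1 and HARS1, between 0.13 and 0.20; HARS1 was the one whose libraries overlapped between doses. Among mitochondrial genes MARS2 alone was called, with 38.6, 35.9 and 39.5 CPM at the low dose, 41, 40.2 and 39.8 CPM at the medium dose and 41.6, 45 and 45.6 CPM at the high dose. Its rise of 0.21 ± 0.06 (adjusted p = 1.28e-02) was lost without Scutellariae high library 2 or 3 or low library 2 (adjusted p between 0.0506 and 0.108). At the medium against the low dose, where 3.35% of genes were called and 1.78% were higher, GARS1 (0.16 ± 0.04, adjusted p = 3.74e-03) and YARS1 (0.13 ± 0.04, adjusted p = 0.0321) rose. The YARS1 call was lost without medium library 1 or 2 or low library 2 or 3.

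The change from low to high dose differed between Coptidis and Scutellariae for 24 of 35 members, tested as an interaction (38.8% of all genes called, 20.9% higher and 17.8% lower). The dose ranges are both 25-fold but differ in µg/mL. With Coptidis the change was more positive for 13 cytosolic and 2 mitochondrial genes, and more negative for 3 cytosolic (VARS1, FARSA, HARS1) and 6 mitochondrial genes. The difference was 1.68 ± 0.06 for WARS1 (adjusted p = 1.03e-26) and -0.87 ± 0.06 for VARS1 (adjusted p = 2.06e-17), which moved in opposite directions with the 2 extracts. Of the risers, 9 were shared, which is 69.2% of the 13 with Coptidis and 75% of the 12 with Scutellariae. These shares are near those of the whole class, where 13 of 19 rose with Coptidis and 12 of 19 with Scutellariae. LARS1, NARS1, QARS1 and TARS1 were called higher with Coptidis alone, and HARS1, KARS1 and VARS1 with Scutellariae alone. The interaction passed the test for each of these genes but KARS1.

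**Figure D4:**
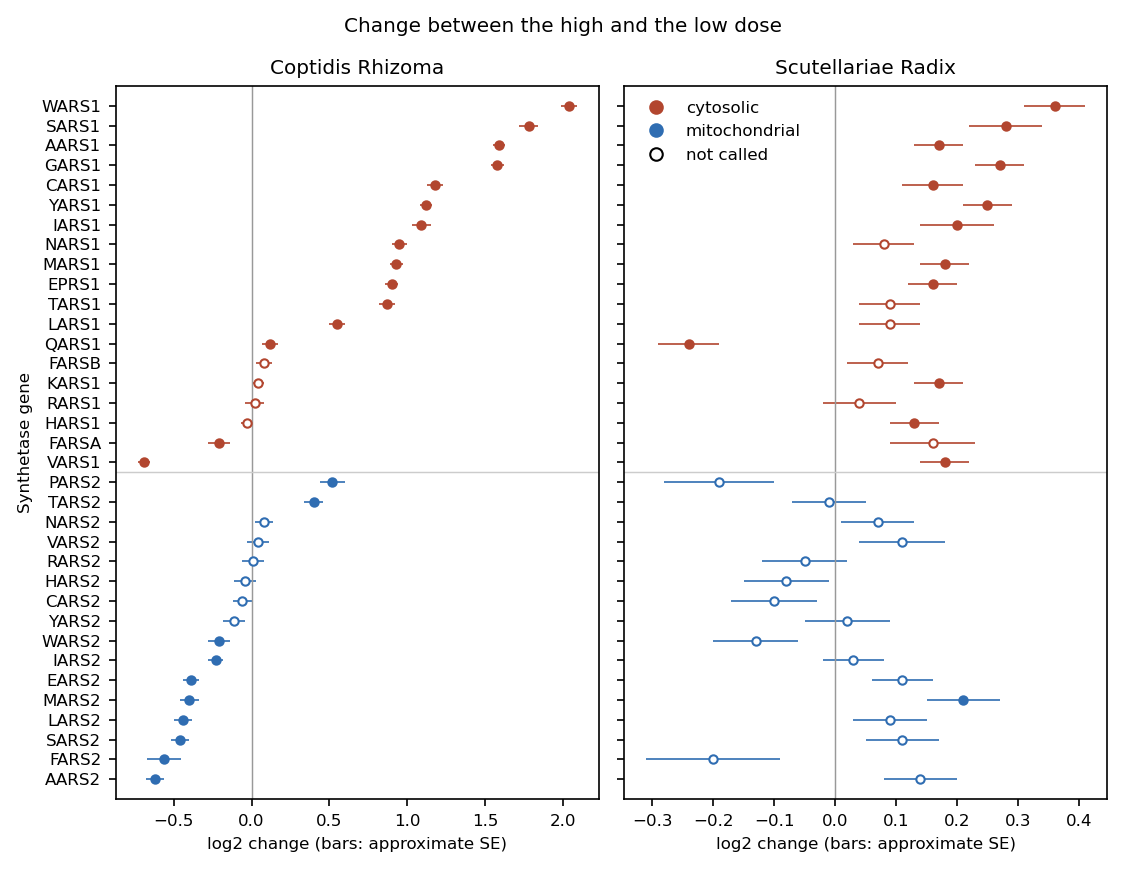
Log2 change between the high and low dose of Coptidis (left) and Scutellariae (right) for all 35 synthetases, with approximate SE bars; filled points were called at an adjusted p of 0.05, and the horizontal axes differ in scale. Cytosolic genes span -0.69 to 2.04 with Coptidis and -0.24 to 0.36 with Scutellariae.

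Wortmannin lowered cytosolic synthetases: 12 of 19 fell against vehicle and none rose, where 20.6% of all genes were called, 9.72% higher and 10.8% lower. The cytosolic median was -0.18 log2 units, against 0.00 over all genes. With no filter on low counts 8 cytosolic and 1 mitochondrial gene were called lower, with AARS1, HARS1, TARS2 and NARS2 among the calls lost. YARS1 had 139, 139 and 139 CPM with wortmannin, against 196, 197 and 196 CPM with vehicle, and it fell by 0.50 on the log2 scale (SE 0.04, adjusted p = 1.32e-15). MARS1 had 125, 125 and 119 CPM with wortmannin, against 168, 165 and 169 CPM with vehicle (-0.44 ± 0.04, adjusted p = 3.53e-13). DDIT3, which overlaps it, was not called (-0.08 ± 0.13). TARS1 had 205, 203 and 207 CPM with wortmannin, against 260, 265 and 273 CPM with vehicle (-0.37 ± 0.05, adjusted p = 1.77e-08). For these 3 genes every wortmannin library was below every vehicle library.

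CARS1 had 55.9, 52.7 and 55.9 CPM with wortmannin, against 68.4, 68.9 and 67.1 CPM with vehicle (-0.31 ± 0.05, adjusted p = 5.59e-06). GARS1 had 149, 152 and 146 CPM with wortmannin, against 172, 179 and 185 CPM with vehicle (-0.27 ± 0.04, adjusted p = 2.59e-07). VARS1 had 220, 207 and 218 CPM with wortmannin, against 249, 256 and 251 CPM with vehicle (-0.23 ± 0.04, adjusted p = 5.00e-05). These groups did not overlap either, with smaller gaps. AARS1 had 113, 116 and 121 CPM with wortmannin, against 129, 135 and 134 CPM with vehicle (-0.18 ± 0.04, adjusted p = 8.82e-04). HARS1 had 76, 78 and 77 CPM with wortmannin, against 88.6, 85.8 and 85.4 CPM with vehicle (-0.17 ± 0.04, adjusted p = 2.26e-03). The remaining 4 that fell were EPRS1, FARSA, KARS1 and SARS1, between -0.22 and -0.17.

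Of the 16 mitochondrial synthetases 3 fell with wortmannin and none rose. The share called is near the 20.6% of all genes (10.8% lower). TARS2 had 24.3, 22.8 and 21.9 CPM with wortmannin, against 27.4, 26.4 and 26.6 CPM with vehicle (-0.22 ± 0.06, adjusted p = 5.37e-03). YARS2 had 26.8, 29.6 and 29.9 CPM with wortmannin, against 35, 33.8 and 32.8 CPM with vehicle (-0.23 ± 0.07, adjusted p = 0.0188). NARS2 had 27.7, 28.8 and 25.5 CPM with wortmannin, against 29.7, 31 and 31.7 CPM with vehicle (-0.17 ± 0.06, adjusted p = 0.0362). No library overlapped, but YARS2 was no longer called without vehicle library 1 or wortmannin library 1. NARS2 was no longer called without vehicle library 2 or 3 or without wortmannin library 1 or 3.

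Of the 12 cytosolic genes that fell with wortmannin, 8 are among the 13 that rose with high Coptidis (66.7% and 61.5% of these lists): AARS1, CARS1, EPRS1, GARS1, MARS1, SARS1, TARS1 and YARS1. That is near the share in the whole class, in which 13 of 19 rose with high Coptidis. WARS1 is not among these 8 genes, at 83.7, 83.3 and 84.1 CPM with wortmannin, against 90.9, 91.3 and 90.1 CPM with vehicle (-0.12 ± 0.05, not called). LARS1 and QARS1 were not called with wortmannin, at 0.09 and 0.07.

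**Figure D5:**
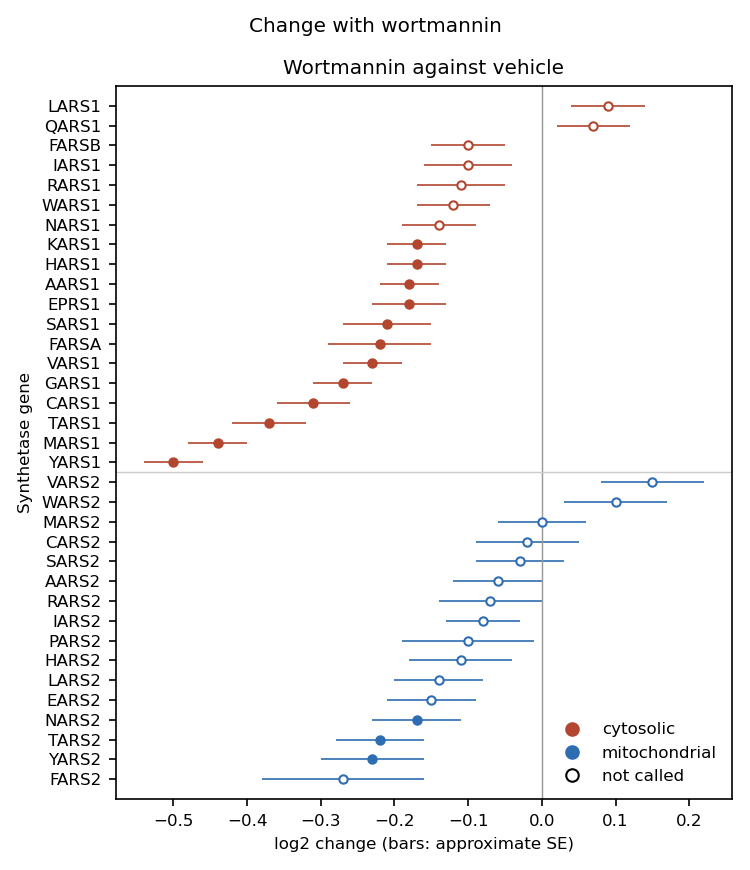
Log2 change of all 35 synthetases with wortmannin against vehicle, with approximate SE bars; open points were not called. All 12 called cytosolic genes and all 3 called mitochondrial genes lie below 0, and YARS1 is lowest at -0.50.

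The other 4 extracts gave few calls or none. At the high against the low dose of fresh ginger, 1 of 35 members was called among 1.79% of all genes (1.21% higher). This was GARS1, with 178, 179 and 179 CPM at the low dose, 180, 187 and 177 CPM at the medium dose and 191, 197 and 204 CPM at the high dose (0.14 ± 0.04, adjusted p = 0.0309). High and low did not overlap, but the call was lost without low library 1 or 3 or high library 2 or 3. Ginger, Pinelliae and Zizyphi gave no call in edgeR at the high against the low dose, where 0.915%, 0.0421% and 0.0482% of all genes were called. An unadjusted p under 0.05 was reached by 10 cytosolic and 0 mitochondrial genes with ginger, by 0 with Pinelliae, and by 3 cytosolic and 1 mitochondrial with Zizyphi. Of all genes, 12.4%, 3.28% and 24.4% reached it in these 3 comparisons. DESeq2 called 1 member with Zizyphi and 0 with ginger and Pinelliae. At the medium against the low dose of these 4 extracts no gene was called in the whole table, and DESeq2 called no member. An unadjusted p under 0.05 was reached by 5 members with fresh ginger, where 6.14% of all genes did, and by 0 with ginger, Pinelliae and Zizyphi (2.64%, 2.02% and 2.32% of all genes).

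Against vehicle, the high Coptidis dose raised the same number of cytosolic genes, 13, and lowered 2, with 2 mitochondrial genes higher and 9 lower (53.8% of all genes called, 26.6% higher and 27.1% lower). High Scutellariae raised 14 cytosolic genes and lowered QARS1, with 4 mitochondrial genes higher and FARS2 lower (20.3% called, 9.72% higher and 10.6% lower). Of these mitochondrial calls, that of MARS2 (0.23) held under every alternative run, and the others are weak. FARS2 was lost under DESeq2 (adjusted p = 0.0554). FARS2, EARS2 and LARS2 were lost with no filter on low counts, without the 4 libraries that stand apart and with only the libraries compared. They were also lost without vehicle library 1 among others. VARS2 was lost without vehicle library 3 or Scutellariae high library 2 or 3. The total of 20 for Scutellariae was 13 without its first high-dose library. Fresh ginger at the high dose had GARS1 as its single call (0.14 ± 0.04, adjusted p = 0.0265, with 2.08% of all genes called and 1.31% higher), lost without vehicle library 1 or 2 or high library 2 or 3. Ginger, Pinelliae and Zizyphi had none in edgeR or DESeq2 (0.789%, 0.187% and 0.0181% called); an unadjusted p under 0.05 was reached by 7, 2 and 1 cytosolic and by 1, 2 and 0 mitochondrial genes, and by 8.6%, 11.5% and 4.52% of all genes. These comparisons share the vehicle libraries.

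Genes that work around the synthetases were read as lists. Of 20 genes made up of ATF4 and its targets outside this family, 19 rose at the high against the low Coptidis dose and none fell, with a median of 2.16. Of all genes 52.4% were called there, 27.1% higher. ASNS, which makes asparagine, had 85.9, 85.6 and 79.8 CPM at the low dose, 199, 201 and 204 CPM at the medium dose and 728, 710 and 738 CPM at the high dose (3.11 ± 0.06). TRIB3, a pseudokinase induced by ATF4, rose by 3.07 ± 0.07, PSAT1 of serine synthesis by 2.34 ± 0.05, and the stress gene DDIT4 by 3.39 ± 0.08. ATF4 itself rose by 0.74 ± 0.06 (adjusted p = 3.98e-15). The same list had 16 genes higher with Scutellariae and none lower, where 7.92% of all genes were higher. It had 11 lower with wortmannin and none higher, where 10.8% of all genes were lower. ASNS was among these 11 at -0.76 ± 0.06, and ATF4 at -0.39 ± 0.06.

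Among genes for tRNA maturation and export, 5 of 17 rose and 3 fell with high against low Coptidis, no larger a share than the 52.4% of all genes called. XPOT, the exporter of tRNA from the nucleus, rose with Coptidis (1.04 ± 0.06) and Scutellariae (0.30 ± 0.06) and fell with wortmannin (-0.19 ± 0.06). The counts that follow stand against the same 52.4% (27.1% higher, 25.3% lower). Of the scaffold proteins of the multisynthetase complex, AIMP2 rose with Coptidis (0.46 ± 0.10) while AIMP1 and EEF1E1 were not called (0.16 and 0.01). Of 6 genes listed as cytosolic elongation factors 5 rose, among them EEF2, which moves the ribosome along the message (0.45 ± 0.05). The gene not called there was EEF1E1, the scaffold protein already counted above. Of the eIF2 kinases and partners 5 of 8 rose and 1 fell; PPP1R15A, the stress-induced subunit that returns eIF2 to its unphosphorylated form, rose by 2.40 ± 0.06.

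On the mitochondrial side, GATB of the glutaminyl amidotransferase fell with high against low Coptidis (-0.44 ± 0.07), and GATC and QRSL1 were not called. Of 10 mitochondrial translation factors 2 rose and 3 fell, near the 27.1% and 25.3% of all genes, and the initiation factor MTIF2 rose most (0.74 ± 0.06). Neither list had a common direction.

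WARS1 was also set beside interferon-induced genes, which moved apart from it in places. Of 7 tested, 7 rose with high against low Coptidis (MX1 1.80 ± 0.13, an antiviral GTPase), as WARS1 did. With Scutellariae 6 of 7 fell (MX1 -1.57 ± 0.17) while WARS1 rose by 0.36. With wortmannin 6 of 7 rose (MX1 2.57 ± 0.14) while WARS1 was not called. IRF1 of the same list moved less than MX1, at 36.1 ± 1.08 CPM with wortmannin against 34.0 ± 2.06 CPM with vehicle. With Scutellariae it had 34.6 ± 0.522 CPM at the low dose and 28.4 ± 1.37 CPM at the high dose. Of all genes, 27.1% were higher and 25.3% lower with Coptidis, and 8.42% were lower with Scutellariae. With wortmannin 20.6% were called in either direction, 10.8% lower and the rest higher. Of the 8 colon epithelium markers 2 rose and 3 fell at the high against the low Coptidis dose, VIL1 by -0.48 ± 0.04 and CEACAM5 by -1.60 ± 0.14; their part in the synthetase changes was not tested.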

How the data were processed

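The authors deposited an expected count for each gene, estimated with STAR 2.7.3a and RSEM 1.3.3 on GRCh38 after Trim Galore 0.6.5 and FastQC 0.11.9, per the submitters' processing notes. The annotation release and strand setting are not given in the sources used here. Columns were matched to samples by name, and 210 columns of other samples were not used. Of the values 8.75% were not whole, and all were rounded. Gene symbols came from a table of gene names and positions from GENCODE release 29 on GRCh38. Promoter windows are RefSeq's. No 2 libraries of a group were copies (smallest chi-square per gene 2.24).

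The model was edgeR 4.0.16 under R 4.3.3 (TMM, filterByExpr, robust quasi-likelihood, 1 coefficient per group over 60 libraries, 40 residual degrees of freedom), tested on simulated data first. P-values were adjusted by Benjamini-Hochberg over 16608 genes within each of 20 comparisons, and members under 0.05 were called. Errors of log2 changes are approximate (the absolute change over the root of its F statistic), and intervals are nominal 95%. CPM used TMM-scaled library sizes, RPKM the union of exons, and class levels log2 CPM with a prior count of 2. Counting error sets the floor of precision and is smallest for the most abundant members.

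All members could be named. Values by library were given for up to 8 cytosolic and 5 mitochondrial called members with the smallest p in a comparison, and up to 4 genes of each other list; VARS1, FARSA, PARS2, QARS1 with Coptidis, WARS1 with wortmannin and DDIT3 were added after their values were seen. The members and lists were chosen with earlier results of these data known. Replicate numbers shared between groups did not pair libraries: no comparison of 19 had all correlations above 0.1 (range -0.37 to 0.21). Alternatives were DESeq2 1.42.0 (size factors and Wald test), no filter, a replicate block, fewer libraries and other class summaries.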

Additional observations from a re-analysis of the deposited data

Results flagged for a closer look

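The change between the high and low dose differed between Coptidis and Scutellariae for 24 members by the interaction test in edgeR, and these are given as Coptidis minus Scutellariae in log2 units. Among cytosolic genes it was more positive for WARS1 (1.68), SARS1 (1.5), AARS1 (1.42), GARS1 (1.31) and CARS1 (1.02). It was also more positive for IARS1 (0.89), NARS1 (0.88), YARS1 (0.88), TARS1 (0.78), MARS1 (0.75), EPRS1 (0.74), LARS1 (0.46) and QARS1 (0.36). Cytosolic genes with a more negative change were VARS1 (-0.87), FARSA (-0.38) and HARS1 (-0.16). Of the mitochondrial genes, PARS2 (0.71) and TARS2 (0.40) were more positive. AARS2 (-0.76), MARS2 (-0.61), SARS2 (-0.57), LARS2 (-0.52), EARS2 (-0.51) and IARS2 (-0.26) were more negative. The doses of the extracts differ in µg/mL.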

How the results depend on the processing

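Counts of called members stayed within 1.5 times for high against low and medium against low Coptidis and for the difference between the extracts under every alternative run. Of 1086 values for named changes none reversed, and 65 were no longer called. At the high against the low dose of fresh ginger the count of 1 became 2 with DESeq2 size factors, the replicate block or the DESeq2 Wald test, and 0 with no filter, without the 4 libraries that stand apart or with only the libraries compared; against vehicle it became 2, 2 and 3, and 0 under the last 3. With no filter, Scutellariae gave 6 at the high against the low dose in place of 14 and 0 at the medium dose in place of 2, and wortmannin 9 in place of 15. At the medium dose of Scutellariae, only the libraries compared gave 1 and DESeq2 gave 4. Zizyphi high against low gave 1 with DESeq2. The causes were not tested. Leaving out 1 library gave 0 to 6 calls for fresh ginger and 0 to 1 for ginger at the high against the low dose. It gave 0 to 4 for Zizyphi, 1 to 4 for Scutellariae medium, 0 to 3 for fresh ginger against vehicle and 13 to 17 for Scutellariae against vehicle. The replicate block changed no other count by over 1.5 times; the numbers share no known origin.

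The cytosolic minus mitochondrial difference kept its sign in Coptidis, Scutellariae medium and high, and wortmannin. By the median over members it was 0.104, 0.362 and 1.171 for Coptidis low, medium and high, 0.117 and 0.166 for Scutellariae medium and high, -0.027 for ginger low, 0.021 for ginger high and -0.007 for Pinelliae medium. With members of at least 20 CPM it was 0.065 and 0.103 for Scutellariae medium and high, -0.016 and -0.014 for ginger low and medium, and -0.016 and -0.039 for Pinelliae medium and high. Without GARS1, KARS1 and WARS1 it was 0.876 for Coptidis high and 0.123 for Scutellariae high. Without the 4 libraries it was 0.033 for fresh ginger low and 0.013 for Pinelliae medium, which ranged from 0.001 to 0.013 with 1 library left out. Low members such as PARS2 and FARS2, near 10 CPM, have the widest errors.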
